A study of Mus musculus with 4 samples.

Results

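The insulin-like growth factor (IGF) genes described here are 6 IGF binding proteins (Igfbp2, Igfbp3, Igfbp4, Igfbp5, Igfbp6 and Igfbp7), the ligand Igf1 and the receptors Igf1r and Igf2r. Every probe set annotated with 1 of these 9 symbols was taken, which gave 21 of the 20380 probe sets with a single symbol and 9 of 12393 genes. The set was chosen by the opposite genotype changes of Igfbp4 and Igfbp5, seen in the deposited signals of these same 4 arrays, so their tri-CH1 over wild-type values are a description of these arrays and support nothing further. Primary fibroblasts grown from e14.5 mouse embryos were studied, and the labels do not say how many embryos or cultures stood behind an array. In tri-CH1 cells the CH1 domain was deleted from both p300 alleles and from 1 of the CBP alleles, which encode related coactivators that bind HIF-1α and other factors through this domain. The other cells were wild type. Subconfluent cultures spent 6 h in 0.1% oxygen (hypoxia) or 21% oxygen (normoxia) with 5% CO2 at 37 °C, in fresh medium already equilibrated at that oxygen level. The 4 groups were tri-CH1 in hypoxia, wild type in hypoxia, tri-CH1 in normoxia and wild type in normoxia, with 1 Affymetrix array each.

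IGF1 and IGF2 are peptide growth factors that act through the tyrosine kinase receptor IGF1R, while IGF2R takes up IGF2 and carries it to lysosomes without a mitogenic signal. The IGF binding proteins hold most of the IGF outside cells and control how much of it reaches the receptor. IGFBP4 is known mainly as an inhibitor of IGF action and is cut by the protease PAPP-A, IGFBP5 is bound in the matrix and has been described both to inhibit and to enhance IGF action, and IGFBP7 binds IGF only weakly. Connective tissue cells make several of these proteins at once.

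Each group had a single array. The values below therefore carry no replicate error and no test was run, and the number of arrays limits the precision. Signals are the deposited values in scaled units, and they are not compared between probe sets. For ratios, signals under 200 were raised to 200, and a ratio whose dimmer side lay under 200 is given as a lower bound. A gene was counted in a comparison when the brighter of its arrays had at least 500, and higher, lower, rose and fell mean a difference of 2-fold or more by size. Where a gene has several probe sets, its value is that of the brightest one by mean over the 4 arrays. The SD of a log2 ratio was estimated over 1501 genes from the 2 brightest probe sets of a gene. The difference between these 2 was divided by the square root of 2 before the SD was taken. This SD was 0.31 and 0.33 for the genotype ratios in hypoxia and in normoxia. For the hypoxia ratios in tri-CH1 and in wild type it was 0.29 and 0.25. It does not include variation between cultures.

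The arrays differed in scale factor, which was 10.3 on the tri-CH1 normoxia array and 3.46 on the wild-type normoxia array at the extremes, and the wild-type normoxia array was from another lot than the other 3. The hypoxia treatment was visible in 5 of 5 checked targets (Bnip3, Slc2a1, Pdk1, Ndrg1 and Egln3), which rose between 6.19-fold and 21.1-fold in tri-CH1 and between 6.19-fold and 26.2-fold in wild type. Crebbp, which encodes CBP, stayed under 200 on every array, between 29.6 and 87.7, so it does not check the genotype labels. All 13 measured fibroblast markers reached 500 on at least 1 array, and none of the 6 endothelial, 6 neural, 6 cartilage and bone and 4 adipocyte markers did. Of the epithelial markers 3 of 8 did (Krt8, Krt18 and Krt19), and of the macrophage markers 2 of 7 (Csf1r and Lyz2). Krt19 had 2676 in tri-CH1 and 3881 in wild type under hypoxia, and 423 in tri-CH1 and 145 in wild type under normoxia. Cdh1 and Epcam, which are typical of epithelium, and Ptprc, which marks white blood cells, were under 200 throughout.

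Igfbp4 was high in tri-CH1 and low in wild type, and Igfbp5 and Igfbp7 were the reverse, at both oxygen levels. The 250 bases before the start of these 3 genes are shown because they are the members that passed 2-fold between the genotypes. They come from RefSeq on mouse build GRCm38.p6, and capitals mark the HIF core motif (ACGTG or GCGTG, either strand) and the TATA box (TATAAA, gene strand).
Igfbp4, chr11:99040994-99041243, plus strand: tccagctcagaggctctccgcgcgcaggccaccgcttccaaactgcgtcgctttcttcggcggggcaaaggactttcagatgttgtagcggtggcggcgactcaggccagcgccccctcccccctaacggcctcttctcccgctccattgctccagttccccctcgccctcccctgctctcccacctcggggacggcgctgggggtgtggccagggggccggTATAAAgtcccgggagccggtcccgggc
Igfbp5, chr1:72874866-72875115, minus strand: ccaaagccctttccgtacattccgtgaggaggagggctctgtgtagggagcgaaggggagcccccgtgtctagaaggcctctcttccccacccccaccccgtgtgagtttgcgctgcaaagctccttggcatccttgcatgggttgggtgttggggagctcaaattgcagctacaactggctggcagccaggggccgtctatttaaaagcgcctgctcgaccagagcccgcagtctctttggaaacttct
Igfbp7, chr5:77408046-77408295, minus strand: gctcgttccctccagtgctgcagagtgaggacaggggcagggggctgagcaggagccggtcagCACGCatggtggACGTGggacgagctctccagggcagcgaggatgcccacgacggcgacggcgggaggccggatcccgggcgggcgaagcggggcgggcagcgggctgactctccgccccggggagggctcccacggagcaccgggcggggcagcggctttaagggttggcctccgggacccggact
The Igfbp4 window holds a TATA box that begins 28 bases before the start. The same letters were found, at any position, in 7.59% of the 32851 promoter windows of this length. The exact letters TATAAA do not stand in the windows of Igfbp5 and Igfbp7, and variants of them were not searched. The HIF core appears in the Igfbp7 window, where it has 2 matches, but not in those of Igfbp4 and Igfbp5. It was found in 38.6% of all windows. The core of the cAMP response element (TGACG, either strand), where CREB binds, was in 17.8% of all windows and in none of these 3. G and C made up 69.2% of the bases for Igfbp4, 58.8% for Igfbp5 and 74.0% for Igfbp7, against a median of 52.4% over all windows.

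Between the genotypes, 1 of the 7 counted members was higher and 2 were lower in tri-CH1 at 0.1% oxygen, where 3.76% and 3.31% of 4233 counted genes were higher and lower, 7.06% in all. At 21% oxygen the same 3 members passed, 1 higher and 2 lower of 7, where 3.16% and 3.48% of 4333 genes were higher and lower, 6.65% in all. These pairs of arrays share no array. However, 2 of the 3 members that passed, Igfbp4 and Igfbp5, are the genes whose genotype changes chose the set. Their calls were known in advance, so the member counts cannot be weighed against these shares. The members' median log2 ratio over those counted was -0.12 in hypoxia and -0.10 in normoxia, beside 0.050 and 0.032 for all counted genes. Igf1 and Igfbp3 were not counted, because neither reached 500.

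**Figure D1:**
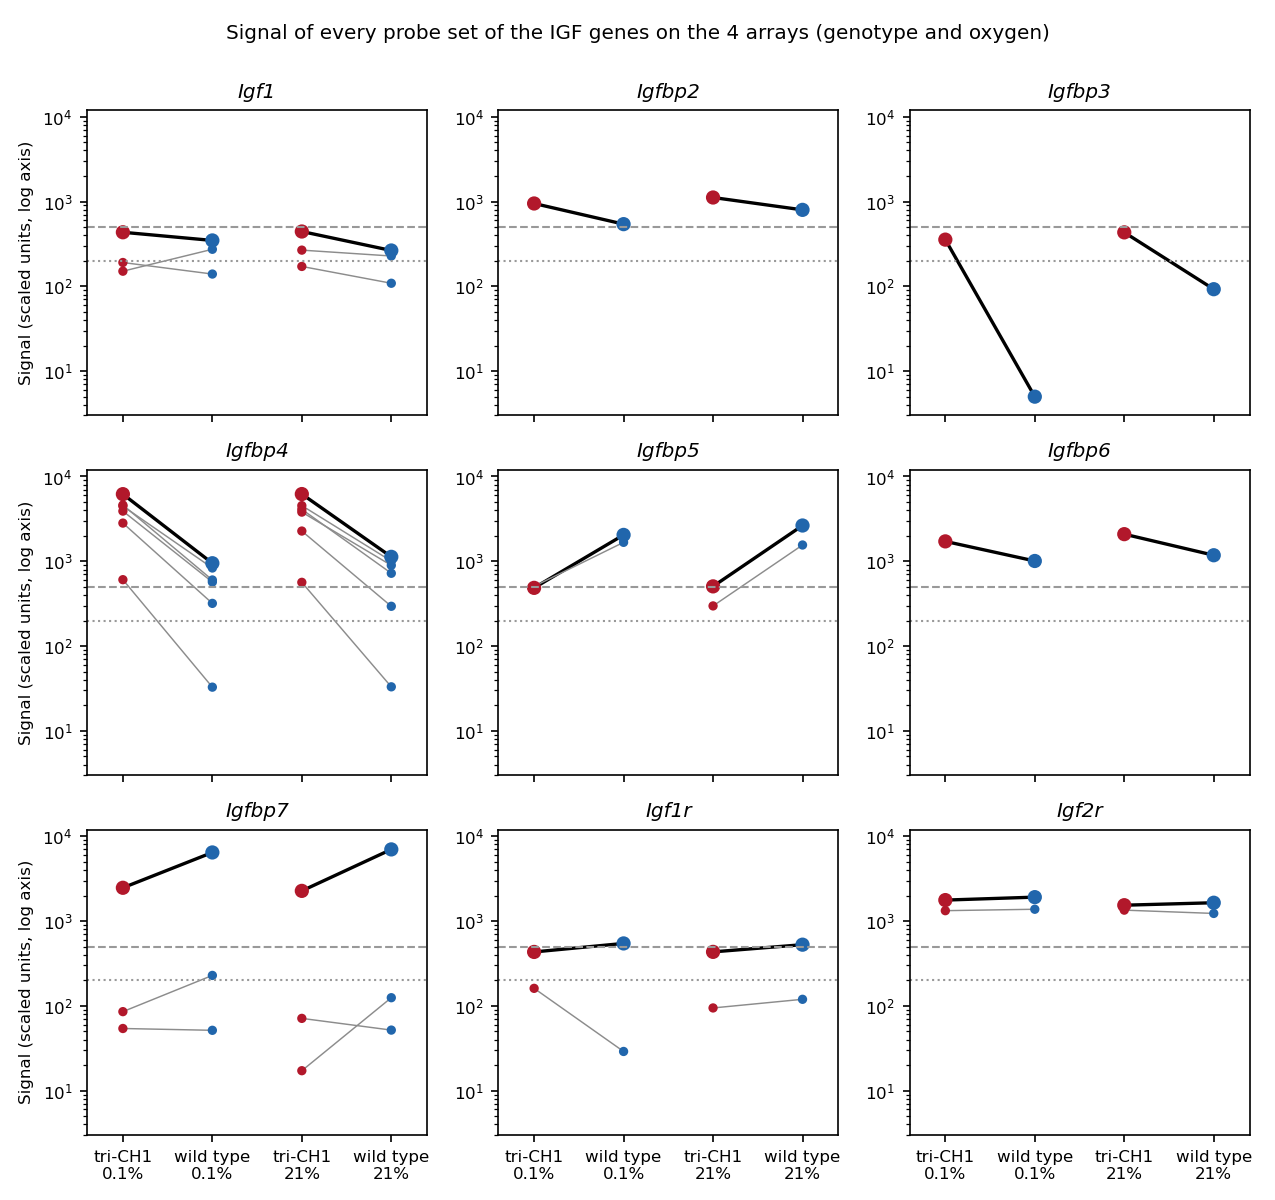
Signal (scaled units, log axis) of all 21 probe sets on the 4 arrays, 1 panel per gene. Red points are tri-CH1 and blue points wild type, thick lines join the probe set used for the gene, thin lines join the others, and the dotted and dashed lines mark 200 and 500. All 6 lines of Igfbp4 go down to wild type, and both of Igfbp5 and the bright one of Igfbp7 go up.

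Igfbp4, the IGF-inhibiting carrier, had a signal of 6191 in tri-CH1 and 949 in wild type under hypoxia, and of 6206 in tri-CH1 and 1129 in wild type under normoxia. The ratio was 6.53-fold at 0.1% and 5.50-fold at 21% oxygen. In bulk RNA, a difference in the number of cells that express a gene and one in RNA per cell cannot be told apart. All 6 probe sets of Igfbp4 reached 500 on an array, and all 6 were higher in tri-CH1 at both oxygen levels. Their log2 genotype ratios ran between at least 1.60 and 3.14 in hypoxia and between at least 1.50 and 2.95 in normoxia. The low end belongs to a probe set at 607 and 565 in tri-CH1 that was at 32.8 and 33.1 in wild type, so those bounds do not show a smaller ratio. Several of these probe sets were designed on the same sequence record and are not independent. Igfbp4 lies on chromosome 11, at 99040005 to 99052655, so the window printed above lies before the start of 1 of its transcripts and inside the annotated gene.

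Igfbp5, the matrix-bound carrier, went the other way. Its brighter probe set had 486 in tri-CH1 and 2047 in wild type under hypoxia, and 506 in tri-CH1 and 2642 in wild type under normoxia, which is 4.21-fold and 5.22-fold lower. Its other probe set had 507 and 1673 under hypoxia and 298 and 1556 under normoxia for tri-CH1 and wild type, 3.30-fold and 5.23-fold lower. Both probe sets were lower in tri-CH1 at both oxygen levels, but the arrays of a genotype differ in oxygen level and are not replicates. The genotype change of Igfbp5 was also part of how the set was chosen, so this order describes these arrays only. Igfbp2, another IGF carrier, lies next to Igfbp5 on chromosome 1, with 5590 bases between the genes. It had 948 in tri-CH1 and 541 in wild type under hypoxia, and 1115 in tri-CH1 and 797 in wild type under normoxia. The log2 ratios of Igfbp2, 0.81 and 0.48, did not pass 2-fold and had the opposite sign to those of Igfbp5.

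Igfbp7, the weak IGF binder also called Mac25, had 2468 in tri-CH1 and 6441 in wild type under hypoxia, and 2269 in tri-CH1 and 6998 in wild type under normoxia. It was thus lower in tri-CH1 by 2.61-fold and 3.08-fold. The result rests on 1 probe set. Its other 2 were dim, 1 of them under 200 on every array and the other at 229 in wild-type hypoxia, and the mean over all 3 did not reach 500 on any array. Of the 3921 genes counted at both oxygen levels, 1.81% were higher and 2.04% were lower in tri-CH1 at both.

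Igfbp6, a carrier that prefers IGF2, had 1717 in tri-CH1 and 1008 in wild type under hypoxia, and 2089 in tri-CH1 and 1178 in wild type under normoxia. Its log2 ratios of 0.77 and 0.83 are under 2-fold. Igfbp3, the main carrier in serum, was dim. It had 355 in tri-CH1 and 5.0 in wild type under hypoxia, and 433 in tri-CH1 and 92.5 in wild type under normoxia, so it was at least 1.78-fold and at least 2.16-fold apart without reaching 500. The background multiplied by the scale factor was 393 and 343 on the tri-CH1 arrays and 246 and 139 on the wild-type arrays, and the part of this in the dim values was not tested.

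The ligand Igf1 had 434 in tri-CH1 and 348 in wild type under hypoxia, and 443 in tri-CH1 and 265 in wild type under normoxia on its brightest probe set. Its other probe sets were dimmer, and 1 of them had 151 in tri-CH1 and 273 in wild type under hypoxia, the opposite order. Igf1r, the signalling receptor, had 432 in tri-CH1 and 545 in wild type under hypoxia, and 433 in tri-CH1 and 527 in wild type under normoxia, with log2 ratios of -0.33 and -0.28. The remaining probe set of Igf1r never reached 200. Igf2r, the clearance receptor, had 1767 in tri-CH1 and 1915 in wild type under hypoxia, and 1538 in tri-CH1 and 1644 in wild type under normoxia. Its log2 ratios were -0.12 and -0.096, and its second probe set gave -0.055 and 0.13. Neither receptor passed 2-fold on any probe set.

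**Figure D2:**
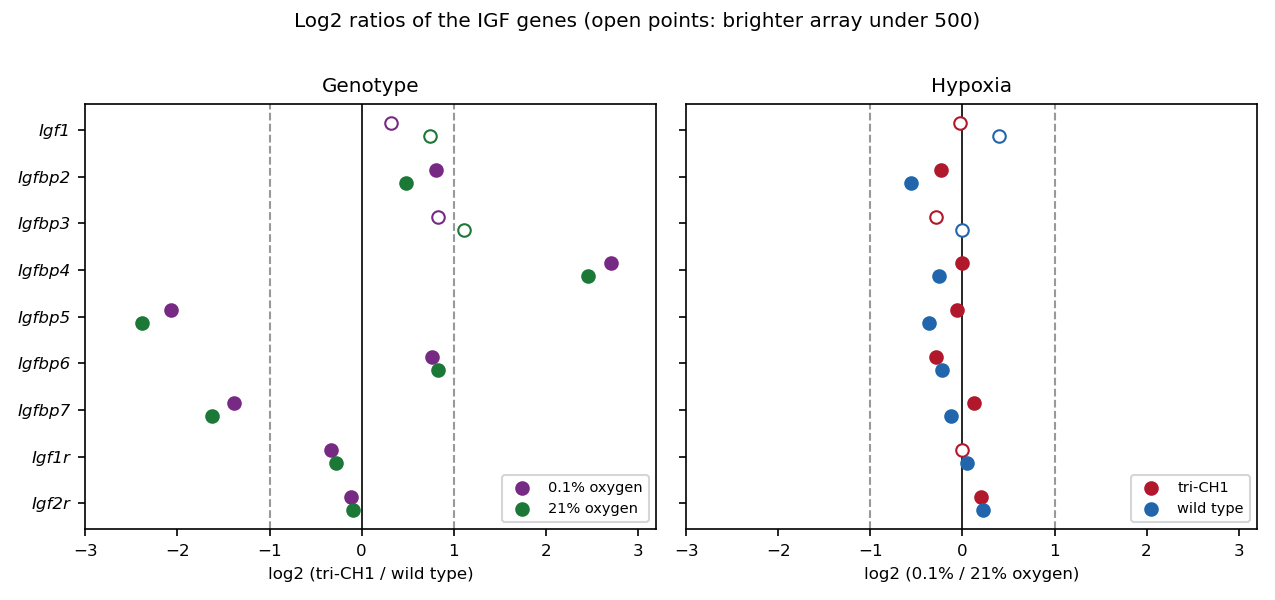
Log2 ratios of the 9 genes on the probe set used, tri-CH1 over wild type at 0.1% and 21% oxygen on the left and hypoxia over normoxia in tri-CH1 and wild type on the right, after the floor of 200. Filled points are counted, open points are not, dashed lines mark 2-fold, and the Igfbp3 genotype points are lower bounds. Igfbp4 stands at 2.71 and 2.46 and Igfbp5 at -2.07 and -2.38, while the hypoxia points all lie between -0.56 and 0.39.

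**Figure D3:**
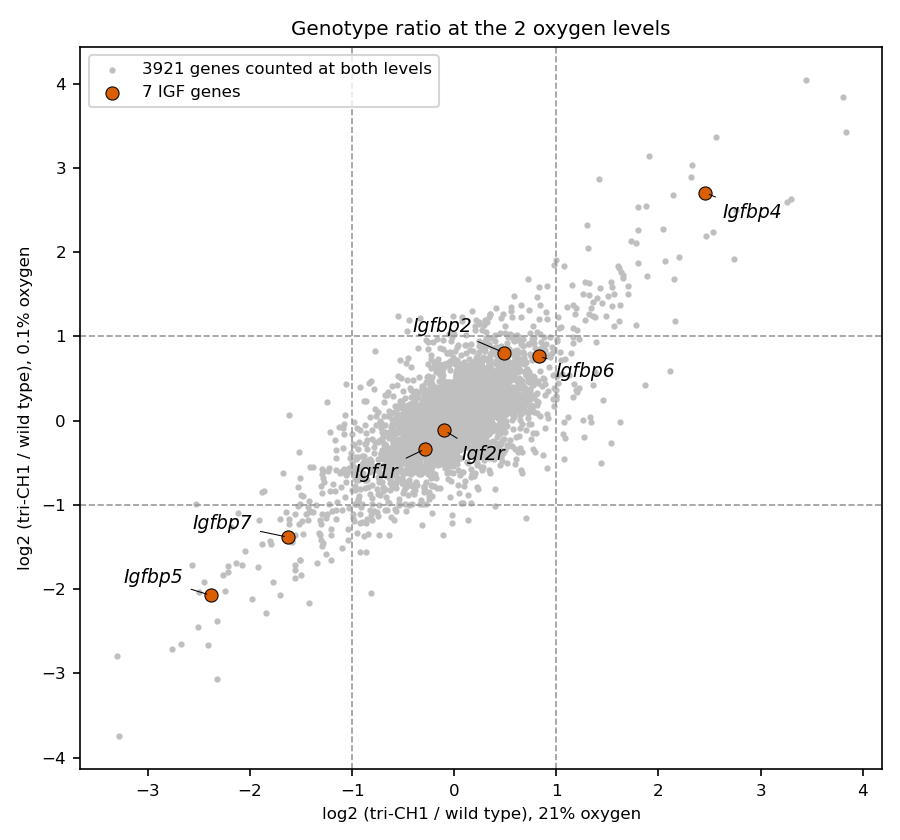
Log2 ratio of tri-CH1 over wild type at 21% oxygen (x axis) and at 0.1% oxygen (y axis) for the 3921 genes counted at both levels (grey) and the 7 IGF genes among them (orange). Dashed lines mark 2-fold, with Igfbp4 past it at the upper right, Igfbp5 and Igfbp7 past it at the lower left and the other 4 inside.

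Other genes moved with the genotype on the same arrays. Xist, the noncoding RNA made from the inactive X chromosome, had 263 and 318 in tri-CH1, against 3523 and 3096 in wild type, in hypoxia and normoxia. All 3 measured Y-linked genes had the opposite order, with Eif2s3y at 363 and 242 in tri-CH1, against 22.8 and 4.3 in wild type. Sex of the embryos and genotype therefore cannot be told apart here. Among the 13 fibroblast markers, the proteoglycan gene Lum was higher and the surface glycoprotein gene Thy1 lower in tri-CH1 at both oxygen levels, and at 0.1% oxygen Col1a1 and Dcn were also higher. The summed fibroblast marker signal was 165014 and 168424 in tri-CH1, against 151571 and 155741 in wild type. The summed signal of 7 skeletal muscle markers was 1218 and 1452 in tri-CH1, against 4017 and 4129 in wild type, mostly through the actin gene Acta1, and Myod1, Myog and Myf5 were under 200 on every array. For 5 smooth muscle markers the sum was 44546 and 44227 in tri-CH1, against 64561 and 62054 in wild type, with Cnn1 lower in tri-CH1 in normoxia. Each sum is led by its brightest probe sets and does not measure cell content. The part of these genotype differences in the IGF results was not tested.

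The counted IGF genes stayed within 2-fold between hypoxia and normoxia in both genotypes. In tri-CH1, 0 of 6 counted members rose and 0 fell, where 3.19% of 4358 genes rose and 0.987% fell, 4.18% in all. In wild type, 0 of 7 rose and 0 fell, where 3.05% of 4125 genes rose and 1.19% fell, 4.24% in all. The members' median log2 change was -0.031 in tri-CH1 and -0.23 in wild type, beside -0.039 and -0.057 for all counted genes. Among the genes counted, Igfbp2 had the most negative change in wild type, at -0.56 on the log2 scale, and -0.23 in tri-CH1. Igfbp4 had -0.003 in tri-CH1 and -0.25 in wild type, and Igfbp5 had -0.058 and -0.37. The second probe set of Igfbp5 had 0.77 in tri-CH1 and 0.10 in wild type, where 0.77 was the highest value among the 14 member probe sets that reached 500 on an array. The lowest was -0.74 in wild type, on a probe set of Igfbp4 with 602 in hypoxia and 1006 in normoxia. Igf2r stood at 0.20 and 0.22, Igfbp6 at -0.28 and -0.23 and Igfbp7 at 0.12 and -0.12, in tri-CH1 and in wild type. Igfbp3 had 355 in hypoxia and 433 in normoxia in tri-CH1, and 5.0 and 92.5 in wild type, where both lie under 200 and give no ratio. Igfbp1, a liver carrier known to be induced by HIF and not a member here, was under 200 on every array, between 26.6 and 120.

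The hypoxia change differed between the genotypes by 1 log2 unit or more in 0 of the 7 members that reached 500 on any array, where 3.23% of 4645 genes did. Their differences, tri-CH1 minus wild type, ran between -0.058 for Igfbp6 and 0.32 for Igfbp2, with a median of 0.24 beside 0.028 for all genes. The SD of such a difference, estimated from probe sets in the same way as for the ratios, was 0.36, and none of these exceeded it. Among single probe sets, 1 of Igfbp4 had 0.76 and the dimmer one of Igfbp5 had 0.66. The wild-type normoxia array, from the other lot, is in each of these differences and in each wild-type hypoxia ratio.

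The rest of the IGF system was described through 5 lists of ligands and receptors, IGFBP proteases and their inhibitors, CCN and related secreted proteins, Igf2 mRNA binding proteins, and receptor signalling. They held 55 measured genes, 31 of which reached 500 on an array. In tri-CH1 over wild type, 2 were higher and 2 lower of 27 counted at 0.1% oxygen, and 4 were higher and 6 lower of 27 at 21% oxygen, where 7.06% and 6.65% of all counted genes passed 2-fold in either direction. In hypoxia over normoxia, 3 rose and 1 fell of 30 counted in tri-CH1, and 2 rose and 0 fell of 27 in wild type, where 4.18% and 4.24% of all counted genes passed. The median log2 genotype ratio was 0.076 in hypoxia and -0.089 in normoxia, and the median log2 hypoxia change was 0.12 in tri-CH1 and -0.012 in wild type. The medians of all counted genes were 0.050 and 0.032 for the genotype ratios and -0.039 and -0.057 for the hypoxia changes.

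Igf2, the fetal ligand, had 7345 in tri-CH1 and 2054 in wild type under hypoxia, and 6018 in tri-CH1 and 1978 in wild type under normoxia. It was thus higher in tri-CH1 by 3.58-fold and 3.04-fold, while its receptors Igf1r and Igf2r were within 2-fold. Ccn5, a secreted protein with an IGFBP-like domain, was also higher at both levels, with 1918 in tri-CH1 and 407 in wild type under hypoxia and 2803 in tri-CH1 and 483 in wild type under normoxia. Htra1, a secreted serine protease with an IGFBP-like domain, was lower, with 1514 in tri-CH1 and 4417 in wild type under hypoxia and 1016 in tri-CH1 and 4217 in wild type under normoxia. Its second probe set kept this order, with 873 in tri-CH1 and 2968 in wild type, then 553 and 2909. Plat, the tissue plasminogen activator, was lower by 2.57-fold and 2.96-fold.

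At 21% oxygen 6 more of these genes passed 2-fold between the genotypes. Pappa, which encodes the IGFBP4 protease PAPP-A, had 344 in tri-CH1 and 750 in wild type under normoxia, and 266 and 454 under hypoxia, where it was not counted. The metalloprotease gene Adam9 was 2.18-fold lower in tri-CH1 and Adamts1 2.13-fold higher. The matricellular genes Ccn2 and Ccn4 were 2.14-fold and 3.63-fold lower. Kazald1, another secreted protein with an IGFBP-like domain, had 501 in tri-CH1, just past the limit, and 122 in wild type. With all arrays scaled to the same median, neither Adamts1 nor Kazald1 was past 2-fold and counted. At 0.1% oxygen the log2 ratios of Adam9, Adamts1, Ccn2 and Ccn4 were -0.62, 0.74, -0.60 and -0.83, and the dimmer probe set of Ccn4, at 1141 in tri-CH1 and 2359 in wild type, was past 2-fold there too. The wild-type normoxia array, from the other lot, is in every one of these 21% oxygen ratios.

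With hypoxia, the stanniocalcins Stc1 and Stc2, which encode inhibitors of PAPP-A, rose in both genotypes. Stc1 had 932 in hypoxia and 276 in normoxia in tri-CH1, and 1016 and 302 in wild type, a rise of 3.38-fold and 3.36-fold. Stc2 rose 5.05-fold in tri-CH1, with 1181 in hypoxia and 234 in normoxia, and at least 3.69-fold in wild type, with 737 in hypoxia and 127 in normoxia, a call that a floor of 400 ended. The second probe set of Stc2 had 832 and 228 in tri-CH1, and 671 and 179 in wild type. Foxo3, a transcription factor restrained by IGF signalling through Akt, rose 2.79-fold in tri-CH1, with 1021 in hypoxia and 366 in normoxia. In wild type its log2 change was 0.96, with 879 and 453, and its next probe set had 702 and 434 in tri-CH1 and 696 and 451 in wild type. Kazald1 fell 2.14-fold in tri-CH1, with 234 in hypoxia and 501 in normoxia, a call lost under 3 other normalizations.

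**Figure D4:**
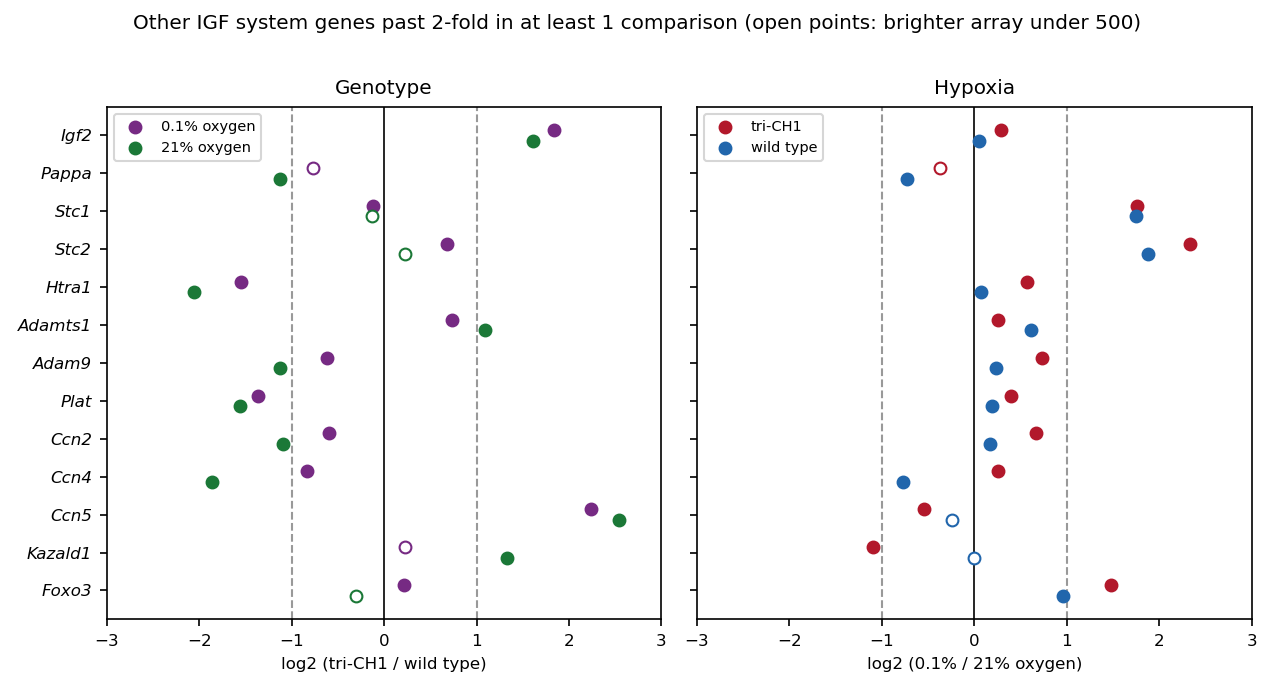
Log2 ratios of the 13 other IGF system genes past 2-fold in at least 1 comparison, with genotype ratios on the left and hypoxia ratios on the right, after the floor of 200. Filled points are counted, open points are not, and dashed lines mark 2-fold. Igf2 and Ccn5 lie right of the line and Htra1 and Plat left of it at both oxygen levels, and Stc1 and Stc2 lie right of it in both genotypes.

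Genes with the most similar pattern after the floor of 200 were taken among 3916 genes with a mean signal of at least 500. The measure was the distance between floored log2 signals centred over the 4 arrays. The 5 nearest to Igfbp4 were Cbr2 (a carbonyl reductase), Mgp (a matrix protein that inhibits calcification), Crabp2 (a retinoic acid binding protein), Sfrp2 (a secreted Wnt inhibitor) and Ccn5, at distances between 0.25 and 0.43. Mgp had 12320 in tri-CH1 and 1498 in wild type under hypoxia, and 10911 in tri-CH1 and 2169 in wild type under normoxia. Wild-type signals in hypoxia and normoxia were 88.3 and 69.2 for Cbr2 and 78.7 and 117 for Sfrp2, so their genotype ratios are bounds. The genotype ratios of Chst12 are bounds too, since its tri-CH1 signals were under 200. For Mcam only the hypoxia ratio is a bound, with tri-CH1 at 146 in hypoxia and 227 in normoxia. The distances and ranks of these genes depend on the floor. The 5 nearest to Igfbp5 were Actg2 (smooth muscle gamma actin), Chst12 (a chondroitin sulfotransferase), Nppb (a natriuretic peptide), Akap12 (a kinase scaffold) and Mcam (an adhesion molecule), between 0.14 and 0.27. Actg2 had 973 in tri-CH1 and 3998 in wild type under hypoxia, and 890 in tri-CH1 and 5039 in wild type under normoxia. All these values share the same 4 arrays.

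**Figure D5:**
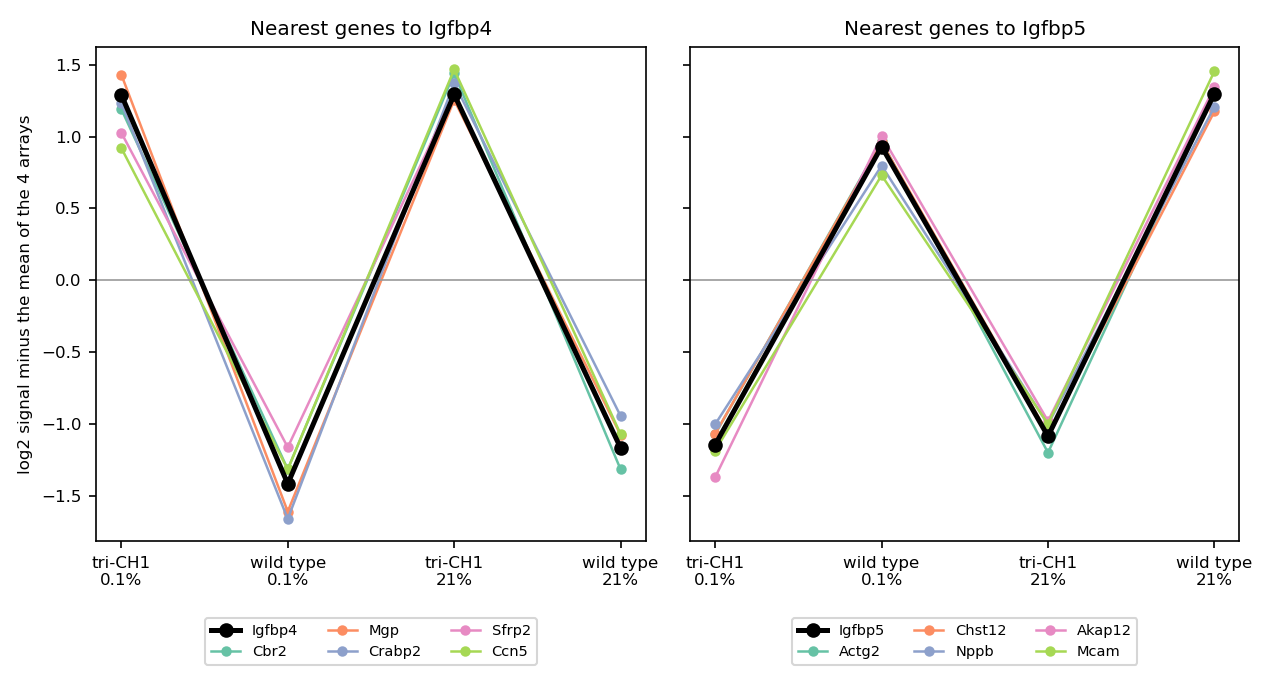
Log2 signal minus the mean of the 4 arrays for Igfbp4 and its 5 nearest genes (left) and for Igfbp5 and its 5 nearest genes (right), after the floor of 200. Each point is 1 array and the black line is the member. Every line is high in tri-CH1 and low in wild type on the left and the reverse on the right, at distances of 0.14 to 0.43.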

How the data were processed

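RNA of 4 samples was measured on 1 Affymetrix array each. The deposited values are linear signal intensities, 1 per probe set, from the Affymetrix statistical algorithm, and were scaled array by array to a target of 500, per the labels. The software version is not given in the sources used here. Symbols came from the annotation of the platform: 20380 of 22690 had 1 symbol, and 20351 of these matched RefSeq by gene number, which changed 0 symbols. Ep300 was not analysed here.

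Groups came from the sample titles. Ratios used signals raised to 200, the probe set with the highest mean per gene, a minimum of 500 on the brighter array and 2-fold for a call. With 1 array per group no test was run. All 9 members were named, other genes of the 5 pathway lists where they passed 2-fold in at least 1 of the 4 comparisons, and the 5 genes nearest to Igfbp4 and to Igfbp5. The members and lists were chosen with earlier results of these data known. Other floors, minimums, normalizations and probe set choices were tried, as given in the closing section. Tools were Python 3.11.15, numpy 2.4.6, pandas 2.3.3, matplotlib 3.10.9, R 4.3.3 and limma 3.58.1.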

Additional observations from a re-analysis of the deposited data

Results flagged for a closer look

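Igfbp7 changed in opposite directions with hypoxia in the genotypes, with a log2 change of 0.12 in tri-CH1 and -0.12 in wild type. Both are smaller than the SD estimated from probe sets, 0.29 and 0.25, and the difference was not tested. With the mean over all 3 probe sets the wild-type value was 0.25.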

How the results depend on the processing

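The 9 counts of members were recomputed under 11 alternatives: floors of 100 and 400 and no floor, minimums of 250 and 1000, quantile normalization, cyclic loess, scaling to the same median, the mean over all probe sets, the mean over those that reach 500, and plain _at probe sets only. Of 99 values 92 were within 1.5 times the reported count, but this share does not measure how stable the calls are. The reported counts of members that rose, fell or differed in hypoxia change were 0. A floor of 100 or no floor also cannot change a 2-fold call, because a brighter signal of 500 is already past 2-fold over the reported floor. A minimum of 250 gave 2 members higher in tri-CH1 at 21% oxygen, Igfbp3 and Igfbp4. The mean over all probe sets gave 1 member lower at each oxygen level, Igfbp5, because the mean over the 3 probe sets of Igfbp7 did not reach 500 and was not counted. Plain _at probe sets gave 0 higher and 1 lower, Igfbp7, at each level, since Igfbp2, Igfbp4 and Igfbp5 have none. Where they had a value, the log2 genotype ratio of Igfbp4 ran from 2.63 to 3.03 in hypoxia and from 2.24 to 2.71 in normoxia, and that of Igfbp5 from -2.15 to -1.90 and from -2.60 to -2.34. With no floor, Igfbp3 had log2 genotype ratios of 6.15 and 2.23, and its wild-type hypoxia change was -4.21, against 0 with the floor. Scaling to the same median shifted the median of all genes by genotype at 21% oxygen to -0.21 and gave 81 higher and 262 lower genes there, 23.6% higher against 47.6% of those reported. With hypoxia it gave 61.7% risen among the genes past 2-fold in wild type, against 72.0%.

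Of the 5 pathway lists, the single gene that fell with hypoxia in tri-CH1, Kazald1, was not called with a floor of 400, a minimum of 1000, quantile normalization, cyclic loess or median scaling. At 21% oxygen, 2 genes were higher in tri-CH1, Igf2 and Ccn5, with a minimum of 1000 or median scaling, against 4. A minimum of 250 gave 5 higher at 0.1% oxygen, against 2. With the mean over all probe sets 1 gene of these lists, Stc2, rose in each genotype, against 3 in tri-CH1 and 2 in wild type. In wild type, 1 gene, Stc1, rose with a floor of 400 or a minimum of 1000. Over all genes, counts of higher and lower in tri-CH1 were 79 and 87 at 0.1% oxygen with a minimum of 1000 (159 and 140 reported) and 66 and 92 at 21% oxygen (137 and 151). With hypoxia 86 rose and 9 fell in tri-CH1 (139 and 43 reported), and 19 fell in wild type (49 reported). A floor of 400 gave 101 genes higher in tri-CH1 at 0.1% and 85 at 21% oxygen, and 18 that fell with hypoxia in tri-CH1 and 24 in wild type. No paired analysis was possible because each group has 1 array and the labels give no replicate numbers. With 1 array per group no array could be left out, but the genotype ratios at 0.1% oxygen do not use the array of the other lot.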

Other observations

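Some genes of IGF receptor signalling stayed under 500 on the probe set used and are given as values only, chosen after they were seen. Foxo1, a transcription factor that Akt keeps out of the nucleus, had 497 in tri-CH1 and 219 in wild type under hypoxia, and 464 in tri-CH1 and 205 in wild type under normoxia. Its next probe sets had 502 and 446 in tri-CH1, against 111 and 236 in wild type, under hypoxia. Stat5a, which acts after the growth hormone receptor, had 434 in tri-CH1 and 173 in wild type under hypoxia, and 421 in tri-CH1 and 145 in wild type under normoxia. Socs3, another dim gene of this list, had 441 in tri-CH1 and 219 in wild type under hypoxia, and 496 and 269 under normoxia. Irs4 had 232 and 43.8, then 226 and 34.6, and Pik3r2 had 360 and 144, then 337 and 222. Stat5b and Gsk3b differed less. Stat5b had 341 in tri-CH1 and 291 in wild type under hypoxia, and 338 and 311 under normoxia. Gsk3b had 374 and 378, then 260 and 265. The background multiplied by the scale factor was higher on the tri-CH1 arrays, and its part in these dim values was not tested.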
